A study of Rattus norvegicus with 3 samples.

Results

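Mitochondria in muscle join and divide continuously, and 6 genes of that machinery are described here across the arrays of the series: Mfn1, Mfn2 and Opa1, which act in fusion, and Dnm1l, Fis1 and Mff, which act in fission. They were chosen by symbol for their known roles, with no threshold on measured values but with earlier results of these data known. Of the 6, 5 had a probe set among 14506 genes with a probe set of their own. Mff, an outer membrane protein that recruits the fission GTPase, was not analysed here.

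The samples were tibialis anterior muscles of male Wistar rats aged 11 weeks, measured on whole-transcript arrays 8 days after electroporation of plasmid DNA. There were 3 groups: Plin5 (OXPAT) in pcDNA3.1 under the CMV promoter, Plin2 (ADRP) in pENTR under the CMV promoter, and the empty pcDNA3.1 vector. All rats ate a high-fat diet, in which fat supplied 45% of the energy, for 3 weeks, and 150 µg of plasmid was injected after 2 of those weeks. Each group was 1 array of RNA pooled from 6 rats, so there was no spread between animals, no test and no p-value, and precision is limited by having 1 array per group. The CMV promoter is not specific to muscle fibres, and the fraction of fibres that took up plasmid is not given in the sources used here. Insert and backbone differ together on the Plin2 array and cannot be told apart. The contralateral sham-treated legs were not analysed here.

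Fusion keeps the mitochondrial network continuous and lets organelles share contents, while fission separates parts of it for transport or removal. The mitofusins Mfn1 and Mfn2 are GTPases that tether and fuse outer membranes, and Mfn2 also links mitochondria to the endoplasmic or sarcoplasmic reticulum. Opa1, a dynamin-related GTPase of the inner membrane, fuses inner membranes and shapes the cristae. Dnm1l (also called Drp1) is a cytosolic GTPase that assembles around the outer membrane and constricts it, and Fis1 is a small protein anchored in the outer membrane. In cultured muscle cells the coactivator PGC-1alpha and the receptor ERRalpha raise Mfn2 expression.

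The 5 measured genes stood lowest on the Plin2 array and highest on the Plin5 array, with the empty vector close below the Plin5 array. On the Plin2 array the fusion genes stood at −0.65 to −0.57 log2 units relative to the empty vector and the fission genes at −0.40 to −0.33. On the Plin5 array all 5 lay 0.03 to 0.10 above the empty vector. Each gene had exactly 1 probe set, so no choice between probe sets was made. All 5 were bright: their mean levels lay between the 81.1st and the 94.3rd percentile of the 10879 genes that remained after the dimmest 25% (mean log2 level under 5.34) had been removed.

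Mfn1 (probe set 10814752) stood at 9.98 on the Plin5 array and 9.33 on the Plin2 array, against an empty vector level of 9.91. Mfn2 (10881499) stood at 11.35 on the Plin5 array and 10.64 on the Plin2 array, against an empty vector level of 11.29. Opa1 (10754950) stood at 10.45 on the Plin5 array and 9.79 on the Plin2 array, against an empty vector level of 10.36. For these fusion genes the Plin2 value was the low one, and the values on the other arrays lay within 0.10 log2 units of each other. Dnm1l (10755846) stood at 11.17 on the Plin5 array and 10.70 on the Plin2 array, against an empty vector level of 11.10. Fis1 (10757448) stood at 10.78 on the Plin5 array and 10.42 on the Plin2 array, against an empty vector level of 10.75. The fission genes had the same order of arrays over a narrower range, 0.36 log2 units for Fis1 and 0.47 for Dnm1l, against 0.66 for Mfn1, 0.67 for Opa1 and 0.71 for Mfn2. Levels of different genes come from different probes and are not compared.

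**Figure D1:**
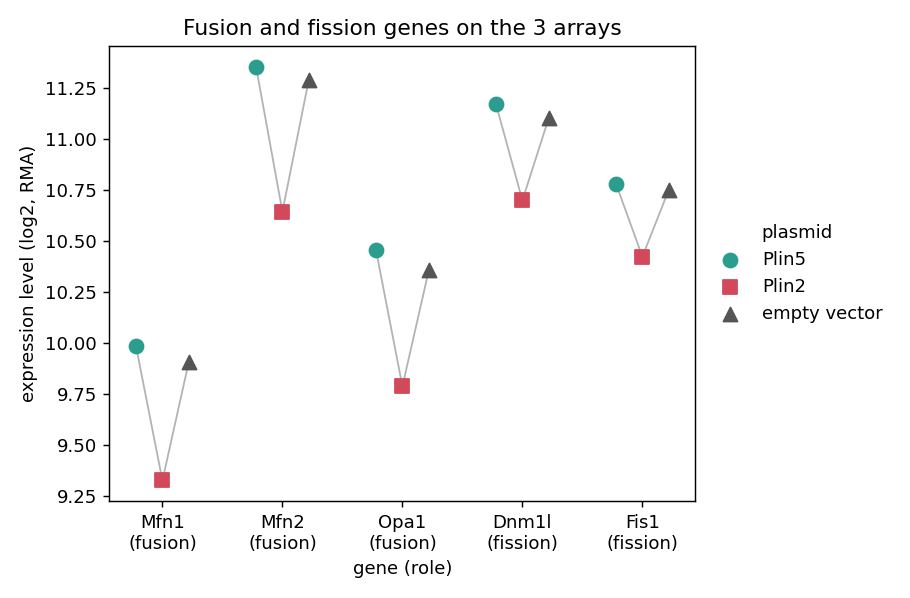
Expression level (log2, RMA) of the 5 measured genes on the Plin5, Plin2 and empty vector arrays; each point is 1 array of RNA pooled from 6 rats, and heights are comparable within a gene only. The Plin2 point is the lowest for every gene, from 9.33 for Mfn1 to 10.70 for Dnm1l, and the Plin5 point lies slightly above the empty vector point.

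Each introduced gene was highest on its own array. Plin5 stood at 8.30 on the Plin5 array and 6.79 on the Plin2 array, against an empty vector level of 7.52, and Plin2 stood at 10.71 on the Plin2 array and 10.08 on the Plin5 array, against an empty vector level of 9.99. All 11 markers of muscle fibres were measured and bright, with median levels of 13.41 on the Plin5 array, 13.24 on the Plin2 array and 13.39 on the empty vector array. Of 16 macrophage markers, 15 passed 1.5-fold upward on the Plin2 array relative to the empty vector, where 8.84% of all genes did, and 6 passed it downward on the Plin5 array, where 1.42% of all genes did. Their summed linear level was 12483 on the Plin5 array and 34169 on the Plin2 array, against an empty vector level of 15737. Of 12 lymphocyte markers (T, B and natural killer cells) past the dim filter, 10 passed 1.5-fold upward on the Plin2 array, with a median of 1.01, against −0.01 on the Plin5 array. All 6 measured tendon markers were lower on the Plin5 array than on the empty vector array, 4 of them by at least 1.5-fold, with a median of −1.10, and on the Plin2 array their median was −0.32. In bulk muscle, fewer cells of a type and less RNA per cell cannot be told apart. The part of these shifts in the values of the fusion and fission genes was not tested.

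In muscle given the Plin2 plasmid all 5 genes were lower: Mfn2 by the most, at −0.65 (0.639 of the empty vector level), then Mfn1 at −0.581 (0.668), Opa1 at −0.568 (0.675), Dnm1l at −0.40 (0.756) and Fis1 at −0.33 (0.797). At 1.5-fold, which is 0.585 on the log2 scale, 1 of the 5 was lower, namely Mfn2, where 5.80% of all genes were lower by that amount and 11.8% of the brightest 25% of genes. Mfn1 missed that threshold by 0.0035 log2 units and Opa1 by 0.017, so the count separates genes whose values nearly coincide: it was 3 with arrays centred on the median gene and 2 after a further quantile normalization. At 1.2-fold all 5 were lower, where 15.5% of all genes and 30.4% of the brightest 25% were. The median over the 5 was −0.57, against 0.00 over all genes. Among all 10879 genes, 4.76% had a difference below that of Mfn2, 5.86% below Mfn1, 6.11% below Opa1, 10.3% below Dnm1l and 12.9% below Fis1. All 5 belong to the brightest 25% of genes, whose differences spread more widely, and within those 9.67% lay below Mfn2, 12.0% below Mfn1, 12.6% below Opa1, 21.5% below Dnm1l and 25.8% below Fis1. Among genes of like brightness Fis1 thus lay inside the middle of the distribution, between its 25th and 75th percentiles, and Dnm1l just outside it.

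The fusion genes differed more than the fission genes on this array. Their mean difference was −0.60 over Mfn1, Mfn2 and Opa1 and −0.37 over Dnm1l and Fis1, a gap of −0.23 log2 units. The ranges did not overlap. The smallest difference of a fusion gene (Opa1, −0.57) was larger in size than the largest of a fission gene (Dnm1l, −0.40). Within the brightest 25% of genes the middle ran from −0.34 at the 25th to 0.17 at the 75th percentile, which is wider than this gap. How often so few genes of like brightness would separate in this way by their labels alone was not tested. Within the fusion genes, the difference of Mfn1 minus that of Opa1 was −0.014 log2 units, and minus that of Mfn2 it was 0.065. Centring the arrays shifts every gene alike and leaves this gap as it is. With 1 array per group and no measured Mff, the gap has no replicate check. Macrophage markers were higher on the same array by a median of 1.16, lymphocyte markers by 1.01, and muscle fibre markers had a median of −0.17, with 11 of 11 below 0. Of these fibre markers 2 were lower by at least 1.5-fold, both named after their values were seen: Myh7, the myosin of slow fibres, at −1.75 and Myh2, the myosin of fast oxidative fibres, at −0.98. After the arrays were centred on the muscle fibre markers, which removed −0.15 log2 units, the differences were −0.50 for Mfn2, −0.43 for Mfn1, −0.42 for Opa1, −0.26 for Dnm1l and −0.18 for Fis1. All 5 stayed below 0 and none reached 1.5-fold. The median levels of these markers, 13.24 to 13.41, lay near the maximum of 14.04 on each array, where differences can be compressed. Whether the shift removed captures the full change in fibre RNA was not tested.

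In the Plin5 muscle all 5 genes lay slightly above the empty vector, and none by as much as 1.2-fold. Opa1 was at 0.10 (1.07-fold), Mfn1 at 0.08 (1.05-fold), Dnm1l at 0.07, Mfn2 at 0.06 and Fis1 at 0.03 (1.02-fold). At 1.5-fold 0 of the 5 were higher, where 0.221% of all genes were, and at 1.2-fold also 0, where 1.52% were. The median over the 5 was 0.07, against 0.00 over all genes, of which 25.8% were above 0, 34.0% below 0 and the rest exactly equal on both arrays. The middle of all genes was narrow on these arrays, from −0.04 at the 25th to 0.00 at the 75th percentile, and the 5 genes lay between the 80.8th and the 90.5th percentile. Within the brightest 25% of genes the middle ran from −0.05 to 0.04, with 38.3% above 0 and 42.2% below. There the 5 lay between the 71.8th percentile (Fis1) and the 87.3rd (Opa1), so Fis1 lay inside the middle. The size of such differences cannot be set against an error here. Tendon markers had a median of −1.10 on this array, macrophage markers of −0.42 and muscle fibre markers of 0.03.

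**Figure D2:**
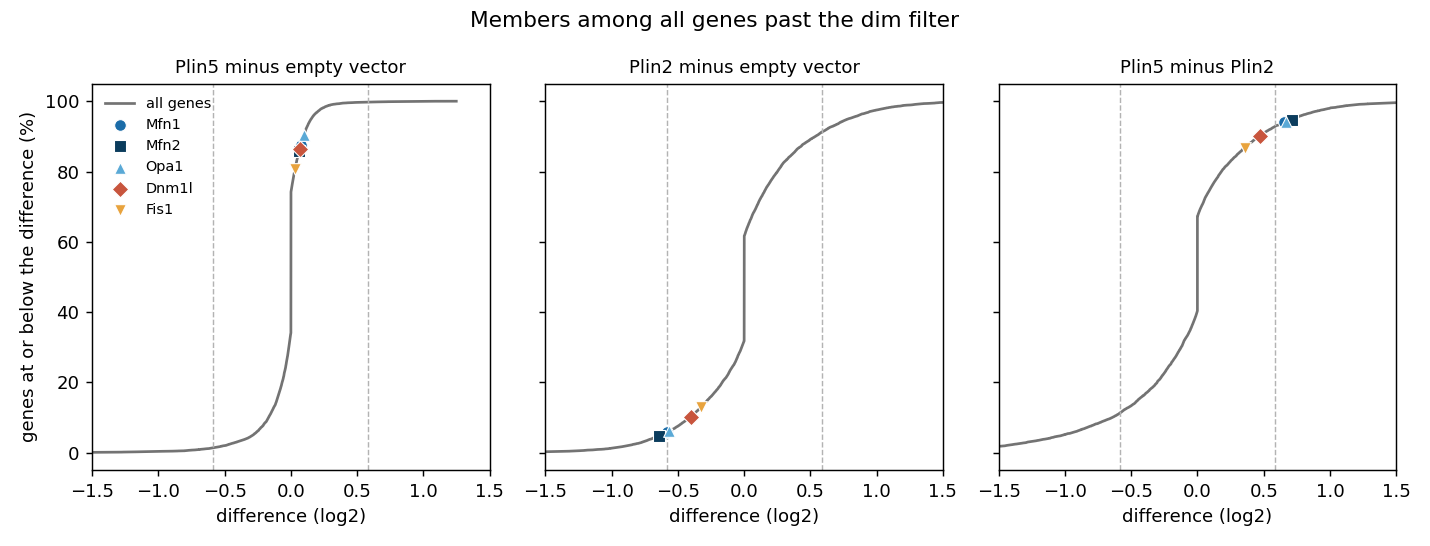
Cumulative share of the 10879 genes (%) against their difference (log2) in each comparison, with the 5 measured genes marked on the curve and dashed lines at 1.5-fold. The genes sit on the right of the curve for Plin5 minus empty vector (80.8th to 90.5th percentile) and on the left for Plin2 minus empty vector, with Mfn2 past the line.

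Set directly against each other, the Plin5 array was above the Plin2 array for all 5 genes. The differences were 0.71 for Mfn2 (1.64-fold), 0.67 for Opa1 (1.59-fold), 0.66 for Mfn1 (1.58-fold), 0.47 for Dnm1l (1.39-fold) and 0.36 for Fis1 (1.28-fold). Of the 5, 3 were higher by at least 1.5-fold, all of them fusion genes, where 7.19% of all genes and 14.6% of the brightest 25% were. The median was 0.66, against 0.00 over all genes. Each of these differences equals the Plin5 difference minus the Plin2 difference, both against the empty vector, so they add no independent measurement. For Mfn2, 0.06 of the 0.71 lay between Plin5 and the empty vector and 0.65 between the empty vector and Plin2. Over all genes, 782 passed 1.5-fold upward and 1225 downward, and 1012 stood higher and 1032 lower after centring on the median gene. Centring on the muscle fibre markers left 0.55 for Mfn2, 0.50 for Opa1, 0.49 for Mfn1, 0.31 for Dnm1l and 0.19 for Fis1, none of them at 1.5-fold.

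Genes that work with the 5 were examined as 9 lists holding 126 further genes, of which 108 had a probe set and 107 were past the dim filter. On the Plin2 array 81 of the 107 lay below the empty vector and 15 above, with a median of −0.25, where 31.7% of all genes lay below and 38.3% above, and 49.7% and 38.3% of the brightest 25%. The brightest 25% held 48 of the 107. Of the 107, 18 (16.8%) were lower and 1 was higher by at least 1.5-fold, where 5.80% and 8.84% of all genes were, and 11.8% and 9.04% of the brightest 25%. On the Plin5 array 71 lay above the empty vector and 13 below, with a median of 0.03. The shares above and below were 25.8% and 34.0% of all genes, and 38.3% and 42.2% of the brightest 25%. Of the 107, 0 reached 1.5-fold on the Plin5 array in either direction, where 0.221% of all genes were higher and 1.42% lower. The direct comparison had 25 higher and 1 lower on the Plin5 array than on the Plin2 array by at least 1.5-fold, where 7.19% and 11.3% of all genes were, and 14.6% and 11.3% of the brightest 25%. The counts of each list below are to be read beside these shares of all genes and of the brightest 25%. The lists were chosen with earlier results of these data known, so the shares serve as a description only.

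Other fusion factors were lower on the Plin2 array in 5 of 5 measured genes, with a median of −0.33 and none at 1.5-fold. Slc25a46 and Mtch2, both outer membrane proteins, were at −0.40 and −0.39, and Opa3 was at −0.25. On the Plin5 array Opa3 was at 0.13 and Mtch2 at 0.06.

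Other fission factors had a median of −0.33 on the Plin2 array and 0.02 on the Plin5 array, and 8 of 10 were below the empty vector on the Plin2 array. Mtfp1, an inner membrane protein that promotes fission, stood at 8.95 on the Plin5 array and 7.95 on the Plin2 array, against an empty vector level of 8.71. That put it at −0.77 for Plin2 and 0.24 for Plin5, a wider range than that of any of the 5 genes above. Mtfr1, the mitochondrial fission regulator, was at −0.60 on the Plin2 array. Dnm2, a dynamin best known for cutting endocytic vesicles, went the other way, at 0.31 on the Plin2 array and −0.14 on the Plin5 array. The lists of other fusion and other fission factors thus had the same median on the Plin2 array, −0.33, where the fusion and fission genes among the 5 had means of −0.60 and −0.37. Both medians rest on how genes were assigned to the lists, which these data do not test.

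Proteases and scaffolds that act on Opa1 had a median of 0.00 in both comparisons with the empty vector, and 0 of 9 reached 1.5-fold. Of the proteases that cleave Opa1 itself, Oma1 was at 0.12 on the Plin2 array and Yme1l1 had 11.03 on all 3 arrays; Yme1l1 was singled out after its values were seen. Afg3l2, a subunit of a matrix-facing protease of the inner membrane, was at −0.37 on the Plin2 array. Cleavage of Opa1 is not measured by an array.

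Genes of the cristae organising complex and of cardiolipin synthesis had a median of −0.42 on the Plin2 array, with 11 of 12 below 0, and 0.08 on the Plin5 array, with 10 of 12 above 0. Chchd3 (MIC19), a subunit of the cristae junction complex, was at −0.66 on the Plin2 array, and Micos10 (MIC10), which bends the membrane at the junction, was at −0.60. Apool (MIC27) was at 0.40 on the Plin5 array and at 0.93 for Plin5 against Plin2, while Chchd6 was at 0.11 on the Plin2 array.

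Mitophagy genes had a median of −0.15 on the Plin2 array and 0.00 on the Plin5 array. Those lower by at least 1.5-fold on the Plin2 array were 3 of 15: the kinase Pink1 (−0.78), which marks damaged mitochondria, the receptor Bnip3 (−0.66) and the adaptor Optn (−0.63), the last named to complete the count. Fkbp8 was at 0.25. Genes of mitochondrial transport and contacts had a median of −0.22 on the Plin2 array, with the kinesin adaptor Trak2 at −0.70 and the outer membrane channel Vdac1 at −0.55.

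Kinases and phosphatases that act on Dnm1l had a median of 0.00 on the Plin2 array and members at both ends. Prkaa2, the muscle-rich catalytic subunit of AMP-activated kinase, was at −0.76, and Akap1, which anchors protein kinase A at the outer membrane, at −0.68. Prkcd, a protein kinase C also abundant in leukocytes, was at 0.77 on the Plin2 array and −0.50 on the Plin5 array, on arrays where macrophage markers stood at 1.16 and −0.42; the part of those cells in its values was not tested. Cdk1, the mitotic kinase, was at 0.48 on the Plin2 array and 0.24 on the Plin5 array. Its empty vector level was low, 6.39 against a median of 8.14 over genes past the dim filter.

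Protein import genes had a median of −0.31 on the Plin2 array, with 16 of 19 below 0. Of them 1, the inner membrane translocase subunit Timm17a (−0.85), was lower by at least 1.5-fold, while Tomm5 was at 0.47. The empty vector level of Tomm5 was low, 6.40 against a median of 8.14 over genes past the dim filter. Regulators of mitochondrial content had a median of −0.48 on the Plin2 array and 0.16 on the Plin5 array, with 7 of 14 lower by at least 1.5-fold on the Plin2 array, where 5.80% of all genes and 11.8% of the brightest 25% were. At the ends of this list on the Plin2 array were Perm1, a muscle regulator of mitochondrial genes, at −1.97, the fatty acid receptor Ppara at −1.501 and, on the other side, the transcription factor Nrf1 at 0.14. The regulators that raise Mfn2 in cultured muscle cells, picked out for that role after values were seen, were both lower on the Plin2 array: Ppargc1a stood at 9.39 there and 10.42 on the Plin5 array, against an empty vector level of 10.15. Esrra stood at 7.74 on the Plin2 array and 8.54 on the Plin5 array, against an empty vector level of 8.34. In the whole list 12 of 14 genes lay below 0 on the Plin2 array, so these 2 do not stand apart in direction. A link between these regulators and the Mfn2 values was not tested.

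**Figure D3:**
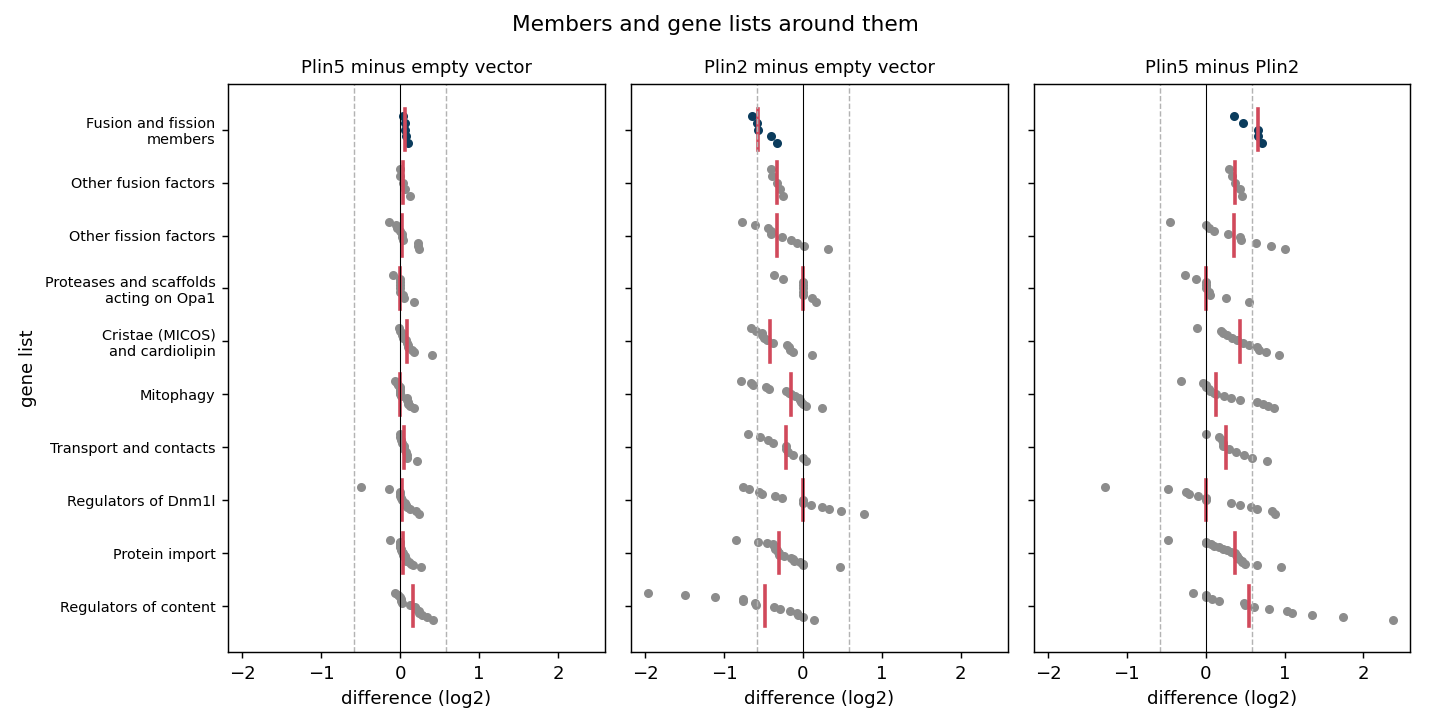
Difference (log2) of each gene past the dim filter in the 5 measured fusion and fission genes (top row) and in the 9 lists around them, with the list median as a red bar and dashed lines at 1.5-fold. For Plin2 minus empty vector the top row has a median of −0.57 and the cristae list −0.42, while the proteases that act on Opa1 sit around 0.00.

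The genes whose differences on the Plin5 and Plin2 arrays lay nearest to those of each gene were found by Euclidean distance between the pairs of differences from the empty vector, as a description. Nearest to Mfn2 were Trim54, a ubiquitin ligase of the sarcomere and microtubules (distance 0.0065), the complex I subunit Ndufb8 (0.010) and the Rieske protein of complex III, Uqcrfs1 (0.012). Nearest to Mfn1 were the import motor subunit Timm44, the thiopurine methyltransferase Tpmt and Cep19, and nearest to Opa1 were Hycc2, R3hdm2 and Fech, the enzyme that inserts iron to form heme. Opa1 came 13th in the list of Mfn1 and Mfn1 18th in that of Opa1, while Mfn2 was 112th for Mfn1. Nearest to Dnm1l were Zfp385a, the proteasome-bound deubiquitinase Uchl5 and Krtap31-1. Nearest to Fis1 were the ATP synthase subunit Atp5f1e, Slmap, a membrane protein of muscle, and the glutamate receptor subunit Grik4. The level of Grik4 was low, 6.02 on the empty vector array. Over 3 arrays many genes lie near any given gene: those between Mfn1 and Mfn2 all stood within a distance of 0.066 of Mfn1.

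Promoter sequence was read from RefSeq (GRCr8) for 4 of the 5 measured genes; Mfn2 is named only. The 250 bases before the start are shown for Mfn1 and Opa1, whose differences nearly coincided, and for Dnm1l, which differed less. Capitals mark matches, on either strand, to 5 motifs: the ERR element TNAAGGTCA, the NRF-1 site (GCGC, any 2 bases, GCGC), the ETS site CCGGAAG, the GC box GGGCGG and the E box CACGTG. The windows are chr2:117241508-117241757 on the plus strand for Mfn1, chr11:84689901-84690150 on the minus strand for Opa1 and chr11:98085147-98085396 on the plus strand for Dnm1l.
Mfn1: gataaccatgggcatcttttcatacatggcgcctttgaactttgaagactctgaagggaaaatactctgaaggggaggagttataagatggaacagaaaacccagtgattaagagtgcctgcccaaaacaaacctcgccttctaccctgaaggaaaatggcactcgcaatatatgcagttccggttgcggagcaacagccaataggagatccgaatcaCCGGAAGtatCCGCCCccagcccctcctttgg
Opa1: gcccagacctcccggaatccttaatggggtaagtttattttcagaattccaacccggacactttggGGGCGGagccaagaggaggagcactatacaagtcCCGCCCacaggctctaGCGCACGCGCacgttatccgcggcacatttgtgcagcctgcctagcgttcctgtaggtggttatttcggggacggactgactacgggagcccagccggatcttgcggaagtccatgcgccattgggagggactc
Dnm1l: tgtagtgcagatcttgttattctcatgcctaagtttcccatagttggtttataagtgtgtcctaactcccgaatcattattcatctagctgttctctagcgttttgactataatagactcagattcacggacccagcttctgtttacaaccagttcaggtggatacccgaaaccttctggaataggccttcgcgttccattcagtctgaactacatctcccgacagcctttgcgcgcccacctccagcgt

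Mfn1 held 1 ETS site, 32 bases before the start, followed by 1 GC box, and Opa1 held 1 NRF-1 site, 134 bases before the start, and 2 GC boxes. Dnm1l held none of the 5 motifs, and Fis1, with 2 windows in the table, held 3 GC boxes in one and 1 in the other. No window of the 4 genes held an ERR element or an E box. Over all 33469 promoter windows of that length, 7.27% held the ETS site, 4.80% the NRF-1 site, 30.5% the GC box, 5.59% the E box and 1.04% the ERR element. The matches are descriptions of these windows, and the arrays do not measure binding.

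**Figure D4:**
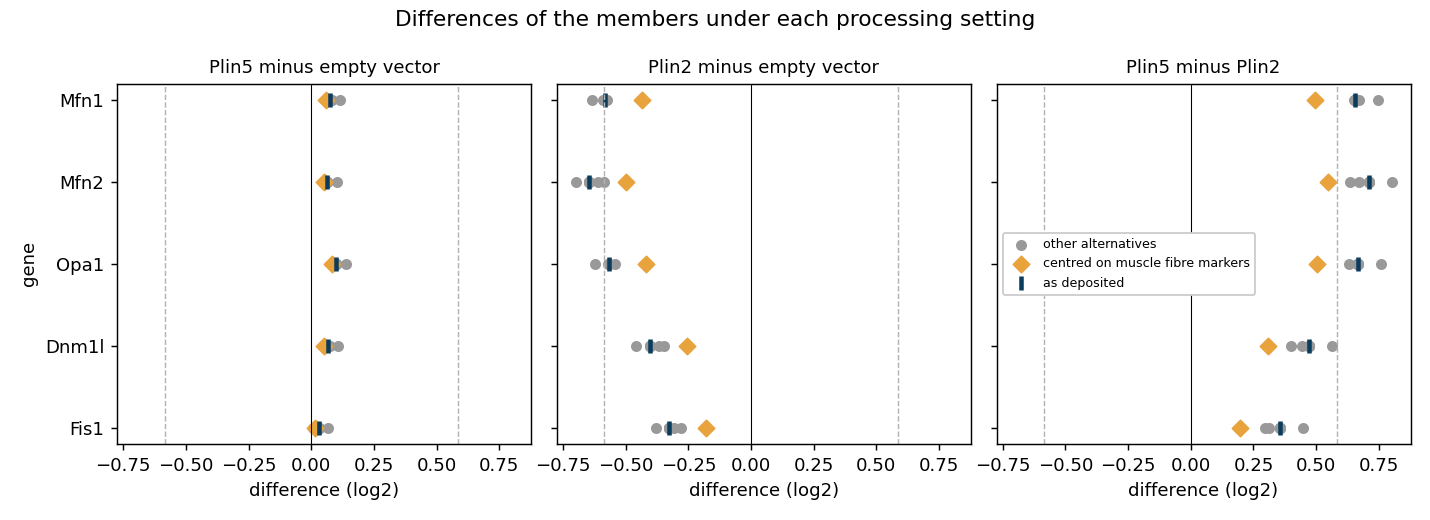
Difference (log2) of each gene in the 3 comparisons as deposited (blue bar), with arrays centred on muscle fibre markers (orange) and under the other alternatives (grey); dashed lines mark 1.5-fold. Every point keeps the side of 0 of its deposited value, and for Plin2 minus empty vector Mfn2 ranges from −0.70 to −0.50. Many grey points coincide with the deposited value, because filters and probe set choice cannot move a gene with 1 probe set.

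The plot of differences by processing setting shows how far these values depend on scaling. Against the empty vector, Mfn1 ranged from −0.63 to −0.43 on the Plin2 array, Opa1 from −0.62 to −0.42, Dnm1l from −0.46 to −0.26 and Fis1 from −0.38 to −0.18. On the Plin5 array the ranges ran from 0.01 to 0.07 for Fis1 and from 0.08 to 0.14 for Opa1. Both ends of each Plin2 range came from the centrings, which shift every gene alike. The order of the genes on the Plin2 array, with Mfn2 lowest and Fis1 nearest to 0, was the same in each setting. Only the further quantile normalization and loess could have changed this order, since filters and probe set choice leave these genes as they are. Under loess Mfn2 was at −0.59 and Mfn1 at −0.57.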

How the data were processed

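Expression was measured on 3 whole-transcript arrays, 1 per group. The deposited values were taken as log2 RMA levels. Per the submitters' processing notes the method was RMA, with no version. It corrects background, quantile-normalizes arrays and summarises probes by median polish, which can leave values exactly equal (11311 of 29214 probe sets, 38.7%, were equal on all 3 arrays) and hides any change in total RNA. The log base was taken as log2 from the range of the values. The chip description and build were not given in the sources used here. Per the labels' protocols, RNA of 6 rats was pooled per array.

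The platform annotation gave 1 symbol to 15310 of the 29214 probe sets, which were used, and several to 323; the other 13581 were not used here. Names were checked through Entrez numbers against RefSeq (GRCr8), where 15279 matched. The brightest probe set stood for each of 14506 genes, and genes with a mean under the 25th percentile (5.34) were removed, leaving 10879. Differences of log2 values were counted at 1.5-fold and 1.2-fold with no test. The counting steps were run on simulated data whose shifts lay away from the 1.5-fold threshold. That run checks the steps and not the counts reported here. Named genes were the 5 measured ones, at most the 2 highest and 2 lowest of each list per comparison, the 3 nearest genes of each by Euclidean distance between pairs of differences from the empty vector, and the introduced genes; exceptions are stated. The genes and lists were chosen with earlier results of these data known. Alternatives covered the threshold, the dim filter, centring, quantile normalization, loess on level (fraction 0.3), probe set choice, centring on muscle fibre markers and, added after seeing the data, use of only the compared arrays. Work was done in Python 3.11.15 with pandas 2.3.3 and numpy 2.4.6; loess came from statsmodels 0.14.6 and figures from matplotlib 3.10.9.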

Additional observations from a re-analysis of the deposited data

How the results depend on the processing

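No paired analysis was possible because each group has 1 array and no test was made. Alternatives were called close when a difference moved by under 0.1 log2 units or a count by under 1.5 times. Each of the 5 genes kept its sign in each comparison under the alternatives run, but several of these could not change it. The dim filter, the probe set choice and use of only the compared arrays leave a gene with 1 probe set as it is. Centring moves every gene by 1 constant per comparison. Only the further quantile normalization and loess act gene by gene. For Plin2 against the empty vector, the genes at or past the threshold numbered 1 as reported, 3 with arrays centred on the median gene, 2 after a further quantile normalization, 0 when centred on muscle fibre markers, 5 at 1.2-fold and 0 at 2-fold, and the median was −0.42 when centred on those markers. For Plin5 against Plin2 the 3 genes past 1.5-fold became 0 when centred on muscle fibre markers, 0 at 2-fold and 5 at 1.2-fold, and the median was 0.49 when centred on those markers. Counts over all genes at 1.2-fold and 2-fold were 786 and 43 for Plin5 against the empty vector, 3788 and 414 for Plin2 against the empty vector, and 4200 and 777 for Plin5 against Plin2. Mfn1 and Opa1 lie so close to 1.5-fold that small changes of scale decide their count.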
